A study of Mus musculus with 12 samples.

Results

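Of the 25124 genes measured in mouse interscapular BAT (brown adipose tissue), 10 encode enzymes that oxidize the carbon chains of leucine, valine and isoleucine after the branched-chain acyl-CoA has been formed. They were taken by gene symbol, and all 10 were found and passed the filter on low values, a mean of at least 1 TPM (transcript abundance scaled for transcript length and library size). Ivd, Mccc1, Mccc2 and Auh act on leucine, Acad8, Hibch, Hibadh and Aldh6a1 on valine, Acadsb on isoleucine, and Pcca on the propionyl-CoA that valine and isoleucine share. RNA-seq was made on 12 BAT libraries from male mice 10 weeks old, 3 in each of 4 groups. The groups were WT and Txnip-/- mice kept for 1 week at 23 °C (room temperature, RT) or at 30 °C (thermoneutrality, TN). Txnip-/- mice lack Txnip, the thioredoxin-interacting protein, in all tissues and were kept on the C57B/6J background, so a difference between genotypes need not arise in brown adipocytes. The comparisons asked how loss of Txnip and release from mild cold alter BAT transcripts.

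The carbon skeletons of the branched-chain amino acids (BCAAs) are oxidized in mitochondria. After transamination and the branched-chain ketoacid dehydrogenase step that all BCAAs share, each acyl-CoA follows its own route. Leucine carbon ends as acetyl-CoA and acetoacetate, valine carbon as propionyl-CoA, and isoleucine carbon as both acetyl-CoA and propionyl-CoA, and propionyl-CoA enters the TCA cycle as succinyl-CoA. Brown fat is known to take up and burn BCAAs when it makes heat.

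The DNA before the transcript starts is shown for 5 members, Ivd, Mccc1 and Mccc2 as successive steps or subunits of the leucine route, Aldh6a1 as the valine gene with the lowest Txnip-/- level relative to WT at TN, and Hibch as the valine gene with the smallest genotype difference at RT. Each is the 250 bases up to the base before the start, from RefSeq on GRCm38.p6, the assembly that mm10 names, and reads 5′ to 3′ on the gene's strand. The windows are chr2:118861744-118861993 on the plus strand (Ivd), chr3:36000679-36000928 on the minus strand (Mccc1), chr13:100015640-100015889 on the minus strand (Mccc2), chr12:84451025-84451274 on the minus strand (Aldh6a1) and chr1:52844788-52845037 on the plus strand (Hibch). Capitals mark CCAAT, the letters of the NF-Y box, or its reverse complement ATTGG.
Ivd: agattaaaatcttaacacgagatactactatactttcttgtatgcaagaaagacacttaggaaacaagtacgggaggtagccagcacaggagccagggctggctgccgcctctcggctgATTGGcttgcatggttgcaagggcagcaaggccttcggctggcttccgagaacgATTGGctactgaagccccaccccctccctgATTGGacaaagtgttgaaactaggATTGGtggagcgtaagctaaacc
Mccc1: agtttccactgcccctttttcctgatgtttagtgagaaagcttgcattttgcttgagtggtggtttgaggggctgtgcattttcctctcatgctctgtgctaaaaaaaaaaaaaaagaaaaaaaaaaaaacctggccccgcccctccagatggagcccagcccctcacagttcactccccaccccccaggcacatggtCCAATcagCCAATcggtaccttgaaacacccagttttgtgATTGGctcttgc
Mccc2: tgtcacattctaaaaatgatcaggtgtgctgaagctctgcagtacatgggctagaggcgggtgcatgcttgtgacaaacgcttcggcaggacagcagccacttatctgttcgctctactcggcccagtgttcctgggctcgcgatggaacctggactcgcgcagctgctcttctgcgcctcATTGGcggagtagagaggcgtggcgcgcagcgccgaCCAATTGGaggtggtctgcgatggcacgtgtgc
Aldh6a1: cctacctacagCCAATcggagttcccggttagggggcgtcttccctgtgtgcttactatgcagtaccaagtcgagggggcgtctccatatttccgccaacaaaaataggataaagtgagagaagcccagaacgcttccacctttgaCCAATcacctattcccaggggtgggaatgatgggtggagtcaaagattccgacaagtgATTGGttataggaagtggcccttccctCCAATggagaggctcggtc
Hibch: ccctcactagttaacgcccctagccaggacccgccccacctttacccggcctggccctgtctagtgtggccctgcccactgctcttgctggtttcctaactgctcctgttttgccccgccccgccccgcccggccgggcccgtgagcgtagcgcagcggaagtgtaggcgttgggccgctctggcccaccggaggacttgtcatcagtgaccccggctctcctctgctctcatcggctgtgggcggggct
CCAAT on either strand occurred 4 times before Ivd, 3 times before Mccc1, 3 times before Mccc2 and 4 times before Aldh6a1. In Mccc2, 2 of the matches overlap. Acad8, Hibadh and Pcca held 1 match each, and Auh, Acadsb and Hibch held none. At least 1 match was thus found in 7 of the 10 members and in 33.8% of 32851 RefSeq windows of the same length, and at least 3 matches in 4 of the 10 and in 2.79% of windows. The GC box, GGGCGG on either strand, was also in 7 of the 10 windows and in 32.7% of all windows, with at least 3 matches in 3 of the 10 and in 8.47% of windows, and 5 before Hibch. An ERR element, searched as TNAAGGTCA, was in none of the 10 and in 1.14% of all windows. A C/EBP core, TTGCNNAA, stood once before Acadsb and in 9.56% of all windows. The CCAAT letters were picked after these windows were read, and a match describes letters and is not a binding site. All 4 members with at least 3 matches are among the windows shown, and Auh of the leucine route, with none, is not. The display therefore adds nothing to the counts.

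Library size, in units of 1e6 reads by the authors' totals, ranged from 29.93 to 47.44. Txnip stood at 564 to 694 TPM in RT WT and 1072 to 1238 TPM in TN WT, and at 24.8 to 35.4 TPM and 10.5 to 14.4 TPM in the RT and TN Txnip-/- libraries. Brown adipocyte markers (8 genes, none at 0) summed at RT to 11340 to 11960 TPM in WT and 8535 to 10760 TPM in Txnip-/-, and at TN to 6692 to 7587 TPM in WT and 3689 to 4305 TPM in Txnip-/-. TN WT replicate 1, the library with the most reads, had the highest TPM of its group for 10 of 10 members, whereas 32.8% of 12486 genes had their group maximum there. In RT WT, replicate 1 was highest for 8 of 10 members (37.9% of genes) and replicate 3 lowest for 8 of 10 (48.8%). In TN Txnip-/-, replicate 1 was highest for 7 of 10 (26.2%). In RT Txnip-/-, no library was highest for more than 5 of 10. Members thus often moved together between libraries. The main values at TN are also given without TN WT replicate 1. The study gives triplicates for each group, but neither it nor the labels tie each library to a mouse of its own, so the p-values measure the spread between these libraries.

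All 10 genes were well expressed. In RT WT, Hibadh, which oxidizes 3-hydroxyisobutyrate, had 404 ± 14.3 TPM (SD, n = 3), and Aldh6a1, the methylmalonate semialdehyde dehydrogenase that closes the valine route, had 404 ± 51.7 TPM. Hibch, which releases 3-hydroxyisobutyrate from its CoA ester, followed at 289 ± 21.2 TPM. Acad8, the isobutyryl-CoA dehydrogenase that opens the valine route, was the lowest of the 10 at 44.8 ± 1.30 TPM, so the valine route held both the highest and the lowest levels per transcript length. Pcca, the biotin-carrying subunit of propionyl-CoA carboxylase, had 184 ± 2.92 TPM. Auh, the 3-methylglutaconyl-CoA hydratase of leucine, had 140 ± 2.69 TPM. Ivd, the isovaleryl-CoA dehydrogenase, had 124 ± 9.58 TPM and Acadsb, the dehydrogenase for 2-methylbutyryl-CoA from isoleucine, 119 ± 8.38 TPM. Mccc1 and Mccc2, the biotin-carrying and the other subunit of 3-methylcrotonyl-CoA carboxylase, had 104 ± 2.57 and 92.7 ± 7.32 TPM. In that order, the ranges of neighbours overlapped for Hibadh with Aldh6a1 and for Ivd with Acadsb. At TN the order of the WT means began with Aldh6a1 at 518 ± 65.9 TPM, above Hibadh at 416 ± 39.97 TPM, and their ranges did not overlap. From Auh down to Mccc2, each neighbouring pair of TN WT ranges overlapped, and Acad8 remained the lowest of the 10 in all 4 groups.

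**Figure D1:**
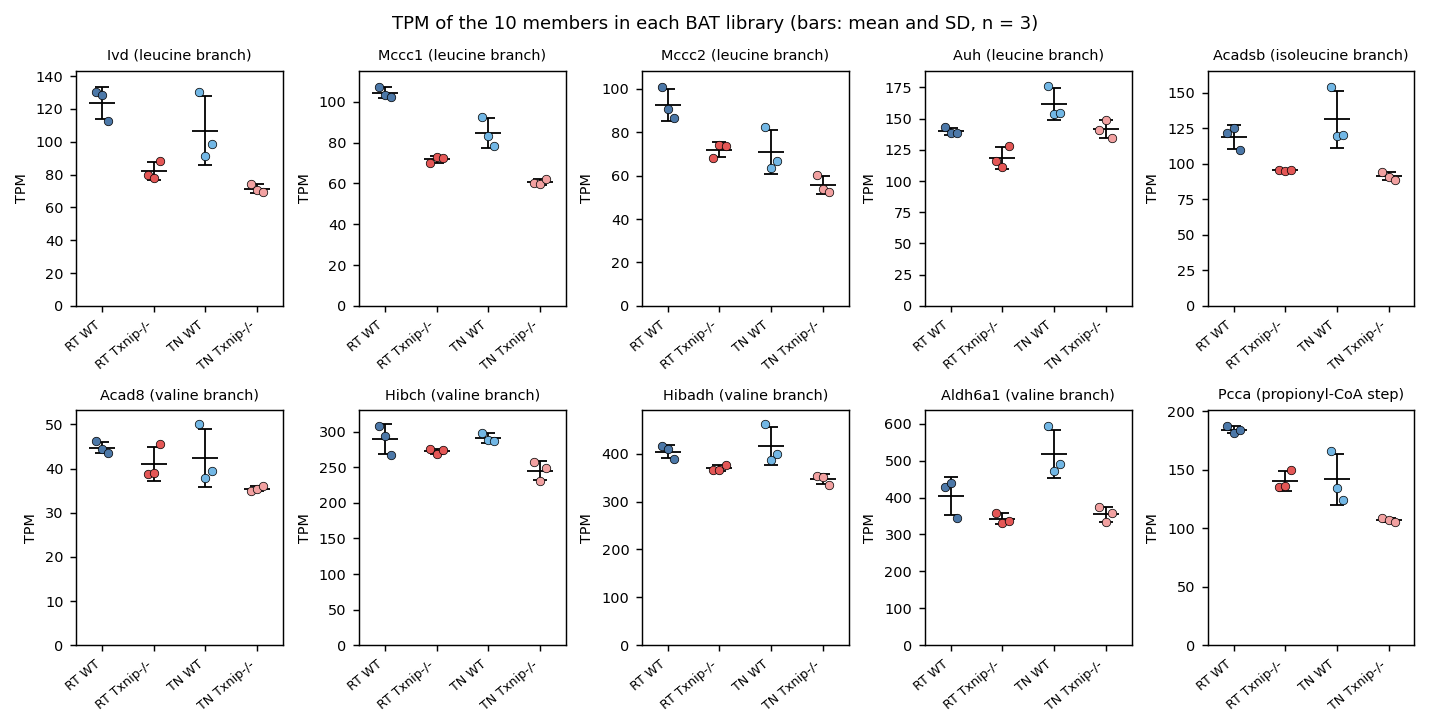
TPM of the 10 members in each of the 12 libraries, 1 panel per gene with its own axis from 0, points for libraries in the order of their replicate number and bars for the mean and SD (n = 3). Txnip-/- points lie below the WT points at both temperatures for Ivd, Mccc1, Mccc2, Auh, Acadsb, Hibadh and Pcca, and the first TN WT point is the highest of its group in all 10 panels.

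At RT, the leucine genes Ivd and Mccc1 had the lowest log2 fold changes of the 10 members in Txnip-/- BAT, followed by Pcca. Ivd fell to 66.3% and Mccc1 to 68.7% of the WT mean, Pcca fell to 76.1%, and no gene of the valine route passed the test. A gene was called when the fold change was below 0.8 or above the inverse of 0.8 and the limma adjusted p was under 0.05. By this rule 3 of the 10 members passed, all lower, where 0.726% of the 11980 genes tested were called lower. All 10 had a log2 fold change below 0, as had 40.8% of genes, and their median was −0.27 against a median of 0.03 over all genes tested. In 7 of the 10 each Txnip-/- library lay below each WT library, which held for 7.58% of genes. The exceptions were Acad8, Hibch and Aldh6a1.

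Ivd was at 130, 128 and 113 TPM in RT WT and at 79.8, 78.1 and 88.1 TPM in RT Txnip-/-. The groups did not overlap, and the log2 fold change was −0.59 (SE 0.08, limma adjusted p = 0.0238). Mccc1 was at 107, 103 and 103 TPM in WT and at 69.8, 73.1 and 72.4 TPM in Txnip-/-. Its groups were tight and apart, and the change was −0.54 on that scale (SE 0.05, limma adjusted p = 0.0123). Pcca was at 187, 182 and 184 TPM in WT and at 135, 136 and 150 TPM in Txnip-/-. The Txnip-/- libraries were all lower, and Pcca changed by −0.39 (SE 0.06, limma adjusted p = 0.0284). Mccc2, the partner subunit of Mccc1, was at 101, 90.9 and 86.5 TPM in WT and at 68.0, 74.1 and 73.6 TPM in Txnip-/-. Its groups did not overlap either, but the difference missed the call, at −0.36 (95% confidence interval −0.53 to −0.19, limma adjusted p = 0.0666). The ratio of Mccc1 to Mccc2 TPM was 1.07 to 1.18 in RT WT and 0.983 to 1.03 in RT Txnip-/-, so the ranges of this ratio did not overlap. At TN they did, with 1.12 to 1.31 in WT and 0.992 to 1.18 in Txnip-/-. Auh had 138 to 143 TPM in WT and 111 to 128 TPM in Txnip-/- (log2 fold change −0.24, 95% confidence interval −0.39 to −0.09, limma adjusted p = 0.13).

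Acadsb of the isoleucine route was at 121, 125 and 109 TPM in RT WT and at 95.9, 95.2 and 95.6 TPM in RT Txnip-/-. The Txnip-/- values were nearly equal and all below WT, with a change of −0.31 that missed the call (SE 0.06, limma adjusted p = 0.0689). On the valine route, Hibadh (388 to 416 TPM in WT, 365 to 377 TPM in Txnip-/-) had groups that did not overlap, at −0.13 (limma adjusted p = 0.261). Aldh6a1 was at 428, 439 and 345 TPM in WT and at 359, 332 and 336 TPM in Txnip-/-. WT replicate 3 lay inside the Txnip-/- range, and the log2 fold change was −0.23 (SE 0.10, limma adjusted p = 0.297). The remaining valine genes differed least, Acad8 with a log2 fold change of −0.12 (95% confidence interval −0.30 to 0.06) and Hibch with −0.08 (−0.23 to 0.06). These intervals leave room for a decrease, so levels alike in both genotypes are not shown. Acad8 had −0.20 without RT Txnip-/- replicate 3, and Hibch had −0.04 without RT WT replicate 1 and −0.14 without RT WT replicate 3.

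The RT calls moved with single libraries. Without RT WT replicate 2, 0 of the 10 members and 2 of 11992 genes passed (limma, adjusted p under 0.05), while the log2 fold changes of Ivd and Mccc1 were −0.56 and −0.54. Without RT WT replicate 1 or any 1 of the Txnip-/- libraries, Mccc1 alone of the 10 passed. Without RT WT replicate 3, Ivd, Mccc1 and Acadsb passed. The share of all genes called lower was 0.167% without RT WT replicate 1, 0.707% without RT WT replicate 3, and 0.193%, 0.291% and 0.117% without Txnip-/- replicates 1, 2 and 3. Pcca lost its call in each of these 6 fits, with log2 fold changes of −0.44 to −0.37 and limma adjusted p of 0.0544 to 0.127. In the full RT comparison 8 of the 10 had an unadjusted limma p under 0.05, with 6.14% of all genes lower at that level.

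**Figure D2:**
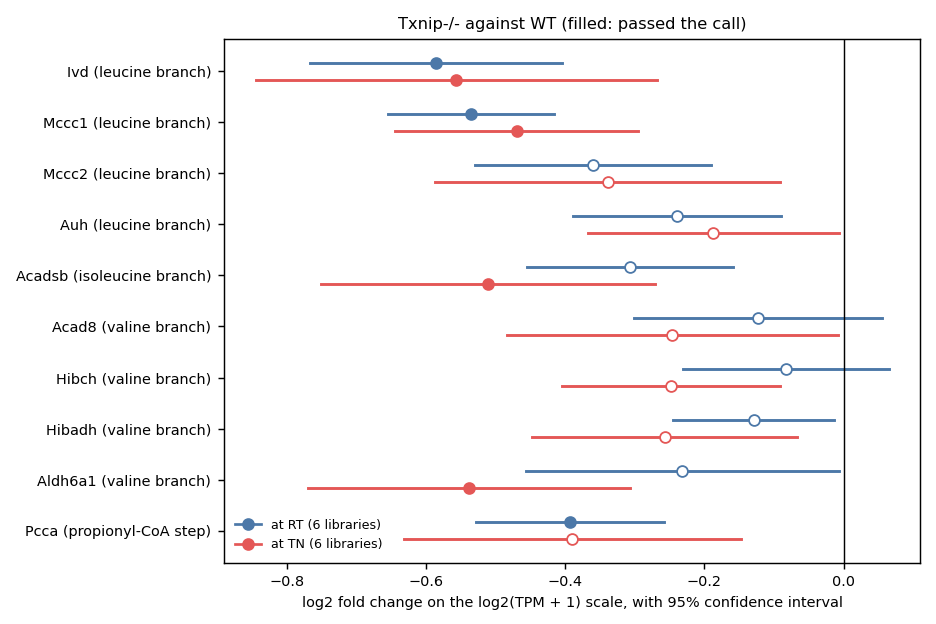
Log2 fold change of Txnip-/- against WT on the log2(TPM + 1) scale with its 95% confidence interval (limma) for each member at RT and at TN, filled where the gene passed the fold and adjusted p thresholds. All points lie below 0, and the valine genes lie nearer to 0 than the leucine genes Ivd and Mccc1 at RT, whereas Aldh6a1 is level with them at TN.

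At TN, genes of the leucine, isoleucine and valine routes passed the test, with 1 of the 4 valine genes among them. The genotype difference was not shown to differ from that at RT, as the interaction given below called 0 of 10 members. Ivd, Mccc1, Acadsb and Aldh6a1 fell to 66.9%, 71.7%, 69.5% and 68.5% of the TN WT mean. These 4 of 10 were called lower, where 2.17% of the 12891 genes tested were called lower. All 10 were again below 0 with a median log2 fold change of −0.36, against 0.01 for all genes, of which 48.1% were below 0. All 10 had Txnip-/- libraries that lay wholly below the WT libraries, which held for 13.4% of genes.

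Ivd was at 130, 91.1 and 98.7 TPM in TN WT and at 74.5, 70.7 and 69.1 TPM in TN Txnip-/-. WT replicate 1 stood above the others, no Txnip-/- library reached the lowest WT library, and the log2 fold change was −0.56 (SE 0.13, limma adjusted p = 0.0329). Mccc1 was at 92.7, 83.3 and 78.2 TPM in WT and at 60.0, 59.9 and 62.3 TPM in Txnip-/-. This gene differed most surely of the 10 by its adjusted p, at −0.47 (SE 0.08, limma adjusted p = 0.0112). Acadsb was at 154, 119 and 120 TPM in WT and at 94.2, 90.5 and 88.5 TPM in Txnip-/-, which differ by −0.51 (SE 0.10, limma adjusted p = 0.0236). Aldh6a1 was at 594, 471 and 490 TPM in WT and at 374, 333 and 358 TPM in Txnip-/-. Again no libraries overlapped, and the log2 fold change was −0.54 (SE 0.10, limma adjusted p = 0.0174).

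The other 6 members did not pass at TN. Pcca was at 166, 135 and 124 TPM in WT and at 108, 107 and 106 TPM in Txnip-/-. Its log2 fold change of −0.39 was the value seen at RT, but it missed the threshold, and the WT libraries ranged more widely than at RT (SE 0.11, limma adjusted p = 0.0572). Mccc2 had −0.34 (95% confidence interval −0.59 to −0.09, limma adjusted p = 0.0913). Hibch, Hibadh and Acad8 of the valine route had −0.25, −0.26 and −0.25, with limma adjusted p of 0.0593, 0.0956 and 0.18. Auh was the least different at −0.19 (95% confidence interval −0.37 to −0.01, limma adjusted p = 0.178). Each of the 10 had an unadjusted limma p under 0.05, with 10.0% of all genes lower at that level.

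Leaving out TN WT replicate 1 made the differences smaller, with a median log2 fold change of −0.25 over the 10 members, and kept the 4 calls. Without it the log2 fold change was −0.40 for Ivd (limma adjusted p = 0.0256), −0.40 for Mccc1 (limma adjusted p = 0.0205), −0.39 for Acadsb (limma adjusted p = 0.0209) and −0.44 for Aldh6a1 (limma adjusted p = 0.0238). Among the genes that did not pass, Acad8 moved from −0.25 to −0.13 and Auh from −0.19 to −0.12. Without TN WT replicate 3 Ivd did not pass and Pcca did. Without Txnip-/- replicate 1 or replicate 2 Mccc1 alone passed, and without Txnip-/- replicate 3 Mccc1 and Aldh6a1 passed. The share of all genes called lower was 1.34%, 1.62% and 1.14% without TN WT replicates 1, 2 and 3, and 0.754%, 0.8% and 2.19% without Txnip-/- replicates 1, 2 and 3.

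In bulk tissue, fewer cells of a type and less RNA per cell cannot be told apart, and other cell types differed between the same groups. For scale, limma called 0.76% of all genes higher and 0.726% lower in Txnip-/- at RT, and 6.49% higher and 2.17% lower at TN. Macrophage markers (10 genes) summed to 82.2 to 95.7 TPM in RT WT and 136 to 220 TPM in RT Txnip-/-, with 3 of 9 tested called higher, and to 176 to 308 TPM in TN WT and 500 to 710 TPM in TN Txnip-/-, with 10 of 10 called higher. Fibroblast markers (6 genes) summed to 203 to 258 and 253 to 308 TPM at RT, with 0 of 6 called by limma, and to 345 to 470 and 825 to 833 TPM at TN, with 6 of 6 called higher. Skeletal muscle markers (6 genes) summed to 2.32 to 2.84 TPM in RT WT and 17.9 to 43.5 TPM in RT Txnip-/-, with 5 of 5 tested called higher, and to 2.21 to 14.4 and 2.82 to 14.4 TPM at TN, with 0 of 2 called. Endothelial markers (5 genes) had 0 of 5 called at either temperature, lymphocyte markers 0 of 2 at RT and 1 of 4 at TN higher, and white adipocyte markers 0 of 2 at RT and 1 of 2 at TN higher. General adipocyte markers (6 genes) summed to 20970 to 21720 and 20240 to 23060 TPM at RT and to 17420 to 19110 and 17480 to 19310 TPM at TN, with 0 of 6 called at either temperature and a median log2 fold change of 0.00 and 0.01. Brown adipocyte markers were called lower in 2 of 8 at RT and 5 of 8 at TN, with medians of −0.36 and −0.85. No marker in these lists was at 0 in a whole group, and their part in the decrease of the BCAA enzymes was not tested.

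The genotype difference of each member was compared between the temperatures by the interaction in 1 limma fit of the 12 libraries. By this test limma called 0 of 10 members and 0 of 10 had an unadjusted p under 0.05, where 0.00801% of the 12486 genes were called and 12.6% had an unadjusted p under 0.05. The 1 gene called was Txnip itself (−2.09, limma adjusted p = 0.00344). With no other gene called, 0 of 10 does not show that the genotype difference is alike at both temperatures. The interaction, the log2 fold change at TN minus that at RT, was −0.31 for Aldh6a1 (95% confidence interval −0.63 to 0.01, limma adjusted p = 0.417), −0.20 for Acadsb (−0.48 to 0.08, limma adjusted p = 0.537) and −0.16 for Hibch (−0.36 to 0.03, limma adjusted p = 0.463). Hibadh and Acad8 had −0.13 and −0.12. The leucine genes stood near 0, from 0.02 for Mccc2 (95% confidence interval −0.28 to 0.32) to 0.07 for Mccc1 (−0.13 to 0.26), and Pcca had 0.00 (−0.27 to 0.28). Without 1 library the interaction ranged from −0.05 to 0.13 for Mccc2, 0.01 to 0.13 for Mccc1 and 0.01 to 0.12 for Auh. Without TN WT replicate 1 the interaction of Aldh6a1 was −0.20, that of Acadsb −0.08, that of Hibadh −0.05 and that of Ivd 0.18, and Acad8 stood near 0 at −0.0032. Aldh6a1 also had −0.20 and Hibch −0.11 without RT WT replicate 3, and Acad8 had −0.05 without RT Txnip-/- replicate 3.

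For the branches as a whole, log2(TPM + 1) was averaged over the members of each route in each library, as a description with no test. At RT the leucine mean was 6.84 ± 0.07 (SD, n = 3) in WT and 6.41 ± 0.06 in Txnip-/-, and at TN it was 6.66 ± 0.17 and 6.28 ± 0.04. The valine mean was 7.75 ± 0.09 and 7.61 ± 0.04 at RT, and 7.83 ± 0.14 and 7.51 ± 0.04 at TN. Txnip-/- was thus 0.43 lower than WT for leucine and 0.14 lower for valine at RT, and 0.39 and 0.32 lower at TN. The isoleucine gene Acadsb was 0.31 lower at RT and 0.51 lower at TN. Without TN WT replicate 1, the differences at TN were 0.29 for leucine, 0.24 for valine and 0.39 for isoleucine.

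Taking the valine mean from the leucine mean within each library removes any scaling that all genes of that library share. In RT WT this difference was −0.91, −0.95 and −0.87. It was lower in every other library, at −1.24 to −1.17 for Txnip-/- at RT, −1.19 to −1.13 for WT at TN and −1.28 to −1.20 for Txnip-/- at TN. The gap between RT WT and the other groups was larger than the spread within any group, whose SD ranged from 0.03 to 0.04. RT WT therefore had the most leucine-route transcript relative to valine-route transcript of the 4 groups, and TN WT stood closer to the Txnip-/- groups than to RT WT. Txnip-/- minus WT in this measure was −0.29 at RT and −0.07 at TN, and TN minus RT was −0.26 in WT and −0.04 in Txnip-/-. The RT contrast of genotypes and the WT contrast of temperatures share the RT WT libraries. With medians in place of means over a route, the contrasts at TN and in Txnip-/- were larger, at −0.25 and −0.14. Leaving out 1 library gave −0.09 to −0.04 for the genotypes at TN and −0.06 to −0.01 for the temperatures in Txnip-/-. With Auh left out of the leucine mean the genotype contrast was −0.35 at RT and −0.13 at TN. Leucine minus isoleucine had another order, with −0.06 ± 0.07 for WT and −0.18 ± 0.06 for Txnip-/- at RT, and −0.37 ± 0.04 for WT and −0.25 ± 0.01 for Txnip-/- at TN.

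**Figure D3:**
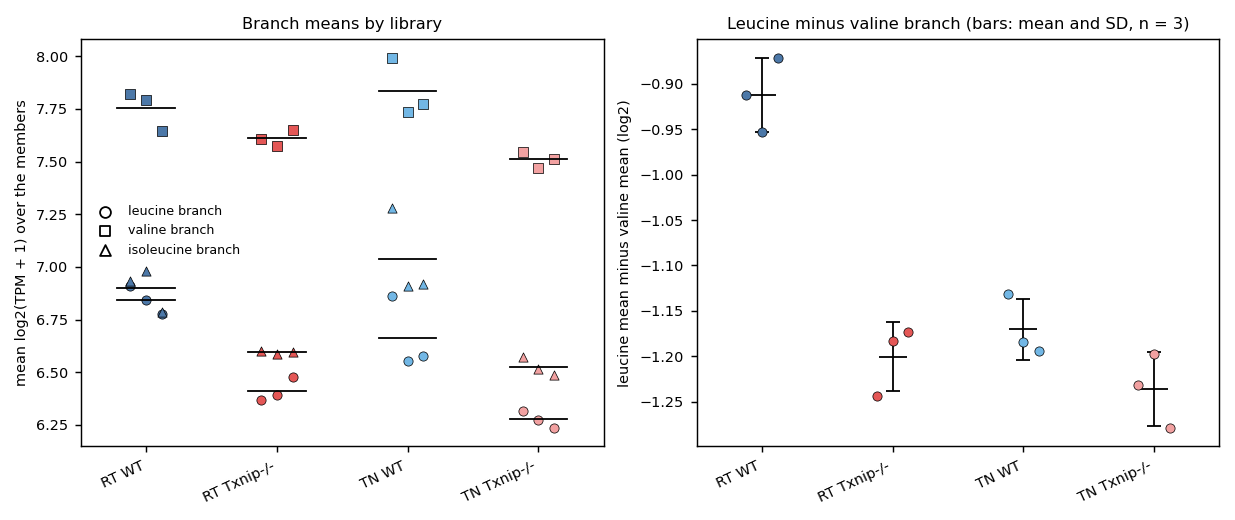
Left, mean log2(TPM + 1) over the 4 leucine, the 4 valine and the 1 isoleucine gene in each library, with a line for the group mean. Right, the leucine mean minus the valine mean in each library with the group mean and SD (n = 3), on an axis that does not start at 0. The 3 RT WT libraries, at −0.95 to −0.87, stand apart from the other 9, at −1.28 to −1.13.

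Between RT and TN, Mccc2 and Pcca fell in both genotypes, and the valine gene Aldh6a1 rose in WT. In WT 2 of 10 members were called lower, where 6.39% of the 12486 genes were called lower, and 1 of 10 was called higher, where 31.4% were called higher. In Txnip-/- 2 of 10 were called lower and 0 of 10 higher (limma; 5 of 10 had an unadjusted p under 0.05), where 8.27% of genes were called lower, 30.9% higher and 57.5% had an unadjusted p under 0.05. The median of all genes was 0.18 higher at TN in WT and 0.15 higher in Txnip-/- on the log2 scale, so members are also given relative to it. With each library centred on its median, 14.7% of genes were called lower and 15.4% higher in WT, and 19.5% lower and 18.4% higher in Txnip-/-. Beside these, 4 members were called lower in WT (Ivd, Mccc1, Mccc2 and Pcca) and 6 in Txnip-/- (those 4, Acad8 and Hibch), and limma called 0 of 10 higher in either genotype.

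Mccc2 was at 82.6, 63.6 and 66.8 TPM in TN WT against 86.5 to 101 TPM in RT WT, and at 60.5, 53.9 and 52.6 TPM in TN Txnip-/- against 68.0 to 74.1 TPM in RT Txnip-/-. TN libraries were lower than RT libraries in both genotypes, with log2 fold changes of −0.39 in WT (SE 0.10, limma adjusted p = 0.00685) and −0.37 in Txnip-/- (SE 0.10, limma adjusted p = 0.00841). Pcca fell by 0.39 on the log2 scale in WT (SE 0.09, limma adjusted p = 0.00425) and by 0.38 in Txnip-/- (SE 0.09, limma adjusted p = 0.00401), again with no overlap of RT and TN. Relative to the median of all genes, Mccc2 was −0.57 and −0.52, and Pcca −0.57 and −0.54, in WT and Txnip-/-. Pccb, the other subunit of propionyl-CoA carboxylase, had log2 fold changes of 0.06 and −0.02 without a call, and the ratio of Pcca to Pccb TPM was 0.421 to 0.433 in RT WT and 0.293 to 0.348 in TN WT.

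Mccc1 had −0.30 in WT (limma adjusted p = 0.0023) and −0.24 in Txnip-/- (limma adjusted p = 0.00775), which passed the adjusted p but not the fold threshold. Ivd had −0.22 (95% confidence interval −0.47 to 0.02) and −0.20 (−0.44 to 0.05), and its value in WT ranged from −0.38 to −0.12 without 1 library. Auh went against the other leucine genes, with 0.20 in WT (limma adjusted p = 0.0314) and 0.26 in Txnip-/- (limma adjusted p = 0.0103), also short of the fold threshold, and relative to the median of all genes it was 0.02 and 0.10. Aldh6a1 was at 471 to 594 TPM in TN WT, above the 345 to 439 TPM of RT WT, with a log2 fold change of 0.36 (SE 0.10, limma adjusted p = 0.0139). Its call was lost when each library was centred on its median, with 0.18 (limma adjusted p = 0.178), with upper-quartile scaling, at 0.26 (limma adjusted p = 0.0573), without TN WT replicate 1, with 0.26 (limma adjusted p = 0.0528), and without RT WT replicate 3, with 0.25 (limma adjusted p = 0.0568). In Txnip-/- Aldh6a1 had 0.05 (95% confidence interval −0.18 to 0.28). Hibch and Hibadh in WT had 0.01 and 0.04, and both were below 0 under median centring, at −0.17 and −0.15. Without TN WT replicate 1, Ivd (−0.38, limma adjusted p = 0.00408) and Mccc1 (−0.37, limma adjusted p = 0.000686) joined Mccc2 (−0.50) and Pcca (−0.51) among the genes called lower in WT. Mccc2 missed the fold threshold without TN WT replicate 2, at −0.31, and so did Pcca without TN WT replicate 3, at −0.30. Macrophage markers were called higher at TN in 9 of 10 genes in WT and 10 of 10 in Txnip-/-, fibroblast markers in 6 of 6 in each, and brown adipocyte markers were called lower in 5 of 8 and 7 of 8, and their part in these differences was not tested. Over all genes, 31.4% and 30.9% were called higher and 6.39% and 8.27% lower in WT and Txnip-/-.

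**Figure D4:**
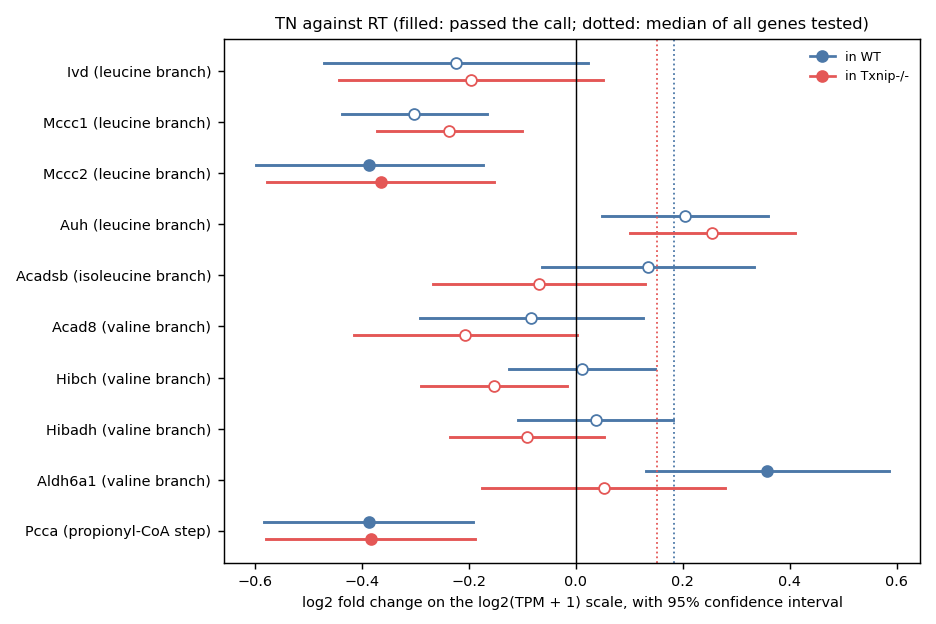
Log2 fold change of TN against RT on the log2(TPM + 1) scale with its 95% confidence interval (limma) for each member in WT and in Txnip-/-, filled where the gene passed the fold and adjusted p thresholds. Dotted lines mark the median of all genes tested, 0.18 in WT and 0.15 in Txnip-/-. Mccc2 and Pcca lie near −0.4 in both genotypes, whereas Auh and, in WT, Aldh6a1 lie above 0.

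The other enzymes of these routes were lower in part. Of 10 further downstream genes, 1 was called lower in Txnip-/- at RT and 2 at TN, with 8 and 10 below 0 and median log2 fold changes of −0.13 and −0.22. Over all genes tested, 0.726% and 2.17% were called lower, and 40.8% and 48.1% were below 0. Mmut, the methylmalonyl-CoA mutase that delivers propionyl carbon to the TCA cycle, fell from 115 ± 7.17 to 88.9 ± 2.86 TPM at RT (log2 fold change −0.37, limma adjusted p = 0.0439) and from 98.6 ± 12.3 to 69.1 ± 4.17 TPM at TN (−0.50, limma adjusted p = 0.0197). Pccb fell from 450 ± 27.5 to 355 ± 10.8 TPM at TN (−0.34, limma adjusted p = 0.0257), and at RT its −0.26 passed the adjusted p alone (limma adjusted p = 0.044). Over 14 alternatives the call of Mmut was lost in 8 at RT and 2 at TN, and that of Pccb at TN in 7. The Pcca to Pccb ratio was 0.369 to 0.418 in RT Txnip-/- and 0.290 to 0.316 in TN Txnip-/-. Of 5 partners that attach or recycle biotin or take electrons from Ivd, Acadsb and Acad8 (Hlcs, Btd, Etfa, Etfb and Etfdh), limma called 0 at either temperature, and their medians were −0.05 and −0.06.

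Before the acyl-CoA is formed, 2 of 8 tested genes of BCAA entry and the ketoacid dehydrogenase were called lower at RT. At TN 4 of 8 were called lower, and the medians were −0.17 at RT and −0.42 at TN. Over all genes tested, 0.726% were called lower at RT and 2.17% at TN. The genes called at RT were Bcat2, the mitochondrial transaminase (−0.53, limma adjusted p = 0.0499), and Bckdhb of the dehydrogenase's first component (−0.44, limma adjusted p = 0.032). At TN Bcat2 had −0.64 without a call (limma adjusted p = 0.0617). The genes called at TN were Bckdhb (−0.49, limma adjusted p = 0.0141) and Bckdha (−0.35, limma adjusted p = 0.0234) of that component, Dbt, the transacylase core (−0.77, limma adjusted p = 0.00802), and Ppm1k, the phosphatase that activates the complex (−0.55, limma adjusted p = 0.018). Over 14 alternatives the RT call was lost in 9 for Bcat2 and 7 for Bckdhb, and the TN call in 7 for Bckdha, 2 for Ppm1k, 1 for Bckdhb and 0 for Dbt (limma).

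Fuel oxidation outside the BCAA routes gives a scale for these counts, beside the 0.726% and 2.17% of all genes called lower in Txnip-/- at RT and TN. Of 14 genes of fatty acid beta-oxidation, limma called 0 in Txnip-/- at RT and 3 lower at TN, namely Acadl (−0.38), the long-chain acyl-CoA dehydrogenase, Cpt1b (−0.65), the carnitine palmitoyltransferase of muscle and brown fat, and Slc25a20 (−0.48), the carnitine carrier. Of 15 TCA cycle genes, 0 were called at RT and 1 lower at TN, Suclg1 (−0.38, limma adjusted p = 0.049), a subunit of succinyl-CoA ligase. These calls were lost in 10 of 14 alternatives for Suclg1, 9 for Acadl, 6 for Cpt1b and 0 for Slc25a20 (limma). The median log2 fold changes were −0.09 and −0.18 for beta-oxidation and −0.13 and −0.27 for the TCA cycle at RT and TN, compared with −0.45 and −0.40 over the 4 leucine genes and −0.13 and −0.25 over the 4 valine genes. Whether these lists differ was not tested. Beta-oxidation had 9 of 14 genes called lower at TN against RT in WT and 12 of 14 in Txnip-/-, with medians of −0.35 and −0.52, whereas the valine genes had medians of 0.02 and −0.12 and 0 of 4 called lower (limma). Over all genes, 6.39% were called lower at TN in WT and 8.27% in Txnip-/-.

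Over the 12 libraries, the genes whose log2(TPM + 1), set to 0 at the RT WT mean, lay closest to the leucine mean were Oplah, which opens 5-oxoproline, Bckdhb, and Cryz, a quinone reductase. Their root mean square distances were 0.07, 0.07 and 0.08 among 6589 genes with a mean of at least 10 TPM. Ivd, Mccc1 and Mccc2 themselves lay at 0.15, 0.14 and 0.14 from the mean that they form with Auh, and Auh at 0.36. Closest to the valine mean were Rfk, the riboflavin kinase, Ppa2, the mitochondrial pyrophosphatase, and Etfa, a subunit of the electron transfer flavoprotein, at 0.05, 0.06 and 0.06. Of the valine genes, Hibadh lay at 0.04, Hibch at 0.07, Acad8 at 0.11 and Aldh6a1 at 0.16. Auh and Aldh6a1 were thus the genes least like the rest of their own route.

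The transcript counted for each member was the same in the TPM table and in both comparison tables of the authors, and the library kit is not described as one that keeps strand. In GENCODE vM21, Aldh6a1 exons share 1078 of 5784 bases with Bbof1 on the opposite strand, which stood at 23.6 to 30.6 TPM in RT WT, 22.6 to 24.7 TPM in RT Txnip-/-, 34.1 to 44.0 TPM in TN WT and 24.2 to 27.6 TPM in TN Txnip-/-. Its TN WT libraries were thus the highest, as were those of Aldh6a1, and its part in the Aldh6a1 values was not tested. Pcca exons share 241 of 5210 bases with Ggact, at 13.4 to 17.6 TPM, and Mccc1 exons share 198 of 10952 bases with the antisense gene Mccc1os, at 1.26 to 2.52 TPM and lower in Txnip-/- than in WT libraries at both temperatures, and fewer bases with Gm15952 and 321 bases with the pseudogene B230207O21Rik. Reads from these stretches cannot be told apart. Hibadh shares 122 bases with the small nucleolar RNA gene Gm24355, and Ivd, Mccc2, Auh, Acadsb, Acad8 and Hibch share none.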

How the data were processed

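Poly-A RNA of 12 BAT libraries was sequenced by the authors in single-end reads, aligned to mm10 with STAR 2.7.5a and counted on exons with HOMER 4.11.1, with 1 transcript kept per gene. The deposited values of all 12 libraries are TPM, which carry no counting error. For the 6 libraries of each temperature the authors also deposited log2-scale values, by a transform that the headers do not name, used only as an alternative, and log2 fold changes, p-values and adjusted p-values from their own DESeq2 comparison, which were not used. Base 2 was read from the values, since 2 raised to them summed to less than the library total in all 12 libraries and e raised to them to more. Their genotype differences were smaller than those of log2(TPM + 1), with a median ratio of 0.666 over 190 genes at RT and 0.708 over 355 at TN, so the fold thresholds are stricter on them. Reads per library were copied from the headers.

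Groups came from the sample labels. Tests were made on log2(TPM + 1), which slightly understates fold changes. All genes averaging at least 1 TPM over a comparison's libraries entered limma 3.58.1 in R 4.3.3 (moderated, with trend) and Benjamini-Hochberg adjustment over all genes tested, at the fold thresholds of the study. Genotypes were compared on 6 libraries per temperature, temperatures and the interaction on 12. Intervals and standard errors are limma's. The members, lists and promoter motifs were chosen with earlier results of these data known. All members are named, with the 3 genes closest to each branch mean. Genes of the other metabolic lists are named where called in a genotype comparison, or the 3 that changed most where more than 5 are called. Cell type markers are given as sums, counts and medians and are not named. Mut is listed as Mmut. Alternatives were another pseudocount (0.1), no filter, upper-quartile scaling, median centring, the authors' log2-scale values, a replicate block, 1 fit for all libraries, no fold threshold and leaving out each library. Figures were drawn with matplotlib 3.10.9.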

Additional observations from a re-analysis of the deposited data

Results flagged for a closer look

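The effect of temperature on Acadsb, the isoleucine gene, had group means on opposite sides in the 2 genotypes. All 3 TN WT libraries (119, 120 and 154 TPM) lay above the RT WT mean of 119 TPM, but 2 of them lay within the RT WT range of 109 to 125 TPM, and the change in WT, 0.13 on the log2 scale, did not pass the test (limma adjusted p = 0.234). All 3 TN Txnip-/- libraries (88.5 to 94.2 TPM) lay below the RT Txnip-/- mean of 95.6 TPM. The test of this difference, the interaction, gave −0.20 on the log2 scale (95% confidence interval −0.48 to 0.08, limma adjusted p = 0.537), so it was not shown to differ. Without TN WT replicate 1 it was −0.08, and with median centring the change of Acadsb in WT was −0.05 in place of 0.13. Leaving out 1 library put that change in WT at 0.01 to 0.20.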

How the results depend on the processing

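All 10 members stayed below 0 in both genotype comparisons under every alternative. No filter, the replicate block, 1 fit for all libraries and no fold threshold leave the log2 fold change as in the main fit. Its sign could therefore turn only under the others. Mccc1 was called under 8 of 8 alternatives other than leaving out a library at both temperatures, Ivd under 6 of 8 at RT and 7 of 8 at TN, and Pcca under 5 of 8 at RT. Dropping the fold threshold is among these alternatives and cannot remove a call, here or in the counts of lost calls above. The cause of the following changes was not tested. Members called in Txnip-/- against WT numbered 3 at RT, 1 with no filter, 5 with upper-quartile scaling and 0 to 3 without 1 library, and 4 at TN, 1 with no filter, 5 with median centring, 6 with all 12 libraries in 1 fit and 1 to 4 without 1 library. All genes called were 178 at RT, 44 with no filter, 177 with upper-quartile scaling, 272 in 1 fit and 2 to 159 without 1 library, and 1116 at TN, 621 with no filter, 1105 with median centring, 1133 in 1 fit and 456 to 1005 without 1 library. The share called lower at RT was 0.726%, 0.109% of 21970 genes with no filter, 0.86% with upper-quartile scaling and 0.0167% to 0.707% without 1 library. At TN it was 2.17%, 0.613% of 22494 genes with no filter, 2.92% with median centring, 2.51% in 1 fit and 0.754% to 2.19% without 1 library. With no fold threshold 5 members in WT and 4 in Txnip-/- passed for TN against RT, beside 50.3% and 51.4% of all genes, and with median centring 6 in Txnip-/-, beside 37.9%.

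Same-numbered WT and Txnip-/- libraries deviated from their group means with r across genes of 0.297, −0.022 and 0.21 at RT and 0.042, 0.023 and −0.036 at TN, and not every library correlated best with its own number, so the numbers were not taken to pair libraries. With the replicate number as a block, 1 member (Mccc1) and 100 genes were called at RT, 5 members and 977 genes at TN, and 4 genes for the interaction, which had 1 without the block and 1 to 6 without 1 library. With the block, 0.434% of genes were called lower at RT and 1.93% at TN.

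Signs turned for the following values. For TN against RT in WT, upper-quartile scaling gave Hibch −0.091 and Hibadh −0.065, median centring gave Hibch −0.172, Hibadh −0.146 and Acadsb −0.049, and leaving out 1 library gave Hibch −0.047 to 0.058 and Hibadh −0.040 to 0.085. In Txnip-/- Aldh6a1 had −0.029 and −0.137 with these scalings. The interaction ranged without 1 library from −0.075 to 0.181 for Ivd, −0.053 to 0.133 for Mccc2 and −0.086 to 0.124 for Pcca, which was −0.0024 with median centring. Ppm1k at RT, 0.016 as reported, had −0.0056 with upper-quartile scaling, −0.013 with median centring, −0.020 in the authors' log2-scale values and −0.167 to 0.143 without 1 library.

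Leucine minus valine moved when medians replaced means over a branch, to −0.42 at RT and −0.25 at TN for the genotypes, −0.32 in WT and −0.14 in Txnip-/- for the temperatures and 0.17 for the interaction. Leaving out Auh gave −0.35, −0.13, −0.39 and −0.17. With 3 libraries a group and TPM alone, counting error was not computed, and the RT calls move with single libraries.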
